A study of Mus musculus with 6 samples.

Results

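The Schlafen genes of the mouse were described in the proximal tibial epiphyses of 14-day-old mice. The family comprised 7 genes, *Slfn1*, *Slfn2*, *Slfn3*, *Slfn4*, *Slfn5*, *Slfn8* and *Slfn9*, of the 47729 genes in the expression table. They were found by the Ensembl identifiers that carry these symbols in the GRCm38 annotation, and all 7 passed a filter on low values (20 reads or more per library on average), as did 19308 genes in all. The family was chosen by its LS1 and Control values in these same libraries. Its difference between the lines is therefore given as a description without a test. The filter used the mean of both lines together.

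Longshanks is a selection experiment on outbred ICR mice, in which breeders were picked in each generation for tibiae that are long for their body mass. LS1 is one of its selected lines. Control is a line kept beside it by random breeding, and both lines carry the ICR background with no transgene, deletion or treatment. RNA came from 3 Control and 3 LS1 mice of different families in generation 13, and each library was made from both proximal epiphyses of 1 mouse. The piece taken held growth plate, metaphysis, articular cartilage and the secondary ossification centre, so cartilage, bone and marrow were measured together. In such a bulk sample a different number of cells of a type and a different amount of RNA per cell cannot be told apart.

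Schlafen proteins share an N-terminal core related to nucleases, and they are best known from lymphocytes, macrophages and other blood cells. The short members consist of little more than this core, the intermediate members carry an added linker domain, and the long members also carry a helicase-like domain. Several members are induced by type I interferon in immune cells. Marrow is a known place of their expression.

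All members lay in 1 cluster of 264 kb on chromosome 11 of GRCm38. In their order along the chromosome, the long gene *Slfn5* (ENSMUSG00000054404) was at chr11:82951349-82964840 on the plus strand. The long genes *Slfn9* (ENSMUSG00000069793, chr11:82978390-82991830) and *Slfn8* (ENSMUSG00000035208, chr11:83002158-83020810) followed on the minus strand. The short genes *Slfn2* (ENSMUSG00000072620, chr11:83065112-83070678) and *Slfn1* (ENSMUSG00000078763, chr11:83116849-83122670) came next, on the plus strand. The intermediate genes *Slfn4* (ENSMUSG00000000204, chr11:83175186-83190216) and *Slfn3* (ENSMUSG00000018986, chr11:83191330-83215154) closed the cluster, also on the plus strand. The annotated pseudogene *Slfn10-ps* lay between *Slfn8* and *Slfn2*.

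Because the family is known for its response to interferon, the promoter windows of RefSeq on GRCm38.p6 (300 bases, of which 250 precede the start site) were searched on both strands. The motifs were the core of the interferon-stimulated response element, GAAANNGAAA, and the core of the gamma-activated site, TTCNNNGAA, where N is any base. Windows were found for 7 of 7 members. The former core was present in 3 of them, *Slfn5*, *Slfn8* and *Slfn9*, all long members, and in 3.99% of the 27025 genes with a window (3.44% of 32851 windows). The latter core was present in 0 of the 7 members and in 9.55% of all genes (8.30% of windows). Among 22 interferon effector genes with a window, 13 (59.1%) held the former core and 5 (22.7%) the latter. The 3 windows with a match are shown with the match in capitals. The window of *Slfn4* is shown beside them as an example of the members without a match. Each line gives the 250 bases before the start site, 5′ to 3′ on the strand of the gene: *Slfn5* at chr11:82951852-82952101 (plus), *Slfn9* at chr11:82991831-82992080 (minus), *Slfn8* at chr11:83020811-83021060 (minus) and *Slfn4* at chr11:83174936-83175185 (plus).
Slfn5: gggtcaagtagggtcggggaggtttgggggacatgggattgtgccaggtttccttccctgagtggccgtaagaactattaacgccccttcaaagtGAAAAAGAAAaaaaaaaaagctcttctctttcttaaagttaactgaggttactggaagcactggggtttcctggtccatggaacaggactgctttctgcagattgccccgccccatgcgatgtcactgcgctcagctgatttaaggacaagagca
Slfn9: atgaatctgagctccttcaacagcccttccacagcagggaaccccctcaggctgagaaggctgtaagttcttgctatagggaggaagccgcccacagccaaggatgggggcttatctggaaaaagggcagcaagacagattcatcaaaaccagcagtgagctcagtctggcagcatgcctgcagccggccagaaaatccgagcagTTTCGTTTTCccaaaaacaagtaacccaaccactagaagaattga
Slfn8: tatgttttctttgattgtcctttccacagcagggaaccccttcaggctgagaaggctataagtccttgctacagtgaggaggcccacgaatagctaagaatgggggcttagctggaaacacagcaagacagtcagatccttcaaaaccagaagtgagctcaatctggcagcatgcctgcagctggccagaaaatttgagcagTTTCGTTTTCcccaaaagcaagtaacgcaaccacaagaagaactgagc
Slfn4: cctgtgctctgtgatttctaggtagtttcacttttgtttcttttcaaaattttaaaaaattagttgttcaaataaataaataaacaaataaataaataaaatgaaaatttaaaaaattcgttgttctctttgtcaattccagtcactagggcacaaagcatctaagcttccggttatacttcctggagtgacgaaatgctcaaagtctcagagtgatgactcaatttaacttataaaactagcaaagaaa

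In *Slfn5* the match began 155 bases before the RefSeq start site. This start lies inside *Slfn5* as GENCODE annotates it, since the first base of the gene there comes before the window shown. In *Slfn9* and *Slfn8* it read TTTCGTTTTC, the core on the opposite strand, and began 45 and 48 bases before the start site. The windows of *Slfn8* and *Slfn9* were 84.9% identical over 292 aligned bases, so the matches of this pair share their surroundings. The second annotated start of *Slfn8* had the same match. The matches are letters in a window, and no binding was measured here.

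Some of the members, *Slfn8* with *Slfn9* and *Slfn3* with *Slfn4*, formed pairs of close sequence. The coding sequence was 1014 bases in *Slfn1* and 1137 in *Slfn2*, 1923 in *Slfn3* and 1809 in *Slfn4*, 2655 in *Slfn5*, and 2733 in both *Slfn8* and *Slfn9*. *Slfn8* and *Slfn9* were 92.7% identical over 2733 aligned coding bases, and *Slfn3* and *Slfn4* were 92.2% identical over 1788. The short pair *Slfn1* and *Slfn2* was 71.0% identical over 1005 bases. All other pairs of members lay between 57.7% (*Slfn1* with *Slfn5*) and 75.4% (*Slfn2* with *Slfn3*).

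Reads were 35 to 50 bases long, so the exonic sequence of each gene was cut into windows of these lengths and each window was looked for in all other annotated transcripts. At 50 bases, 99.4% of the windows of *Slfn1* and 95.7% of those of *Slfn2* occurred in no other gene. It was 2864 of 3409 windows in *Slfn3*, and the share was 88.7% in *Slfn4*, 88.9% in *Slfn5*, 85.4% in *Slfn8* and 88.1% in *Slfn9*. *Slfn8* shared 10.1% of its windows with *Slfn10-ps* and 9.30% with *Slfn9*, and *Slfn3* shared 7.39% with *Slfn4*. With the neighbouring pseudogene *Gm11427*, which had a mean of 1291 reads, *Slfn3* shared 6.45% and *Slfn4* 4.01%. *Slfn5* shared 7.38% with its antisense transcript *Slfn5os*, which was listed at no more than 4.35 normalized counts in any library. At 35 bases the median over the members fell from 88.7% to 81.3%. Windows of *Slfn5* occurred in 635 other genes at 50 bases and in 3053 at 35 bases, more than those of any other member. How reads that match several genes were counted was not stated. The values of all members, *Slfn1* least by share, thus carry an uncertainty that the replicate spread does not show.

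**Figure D1:**
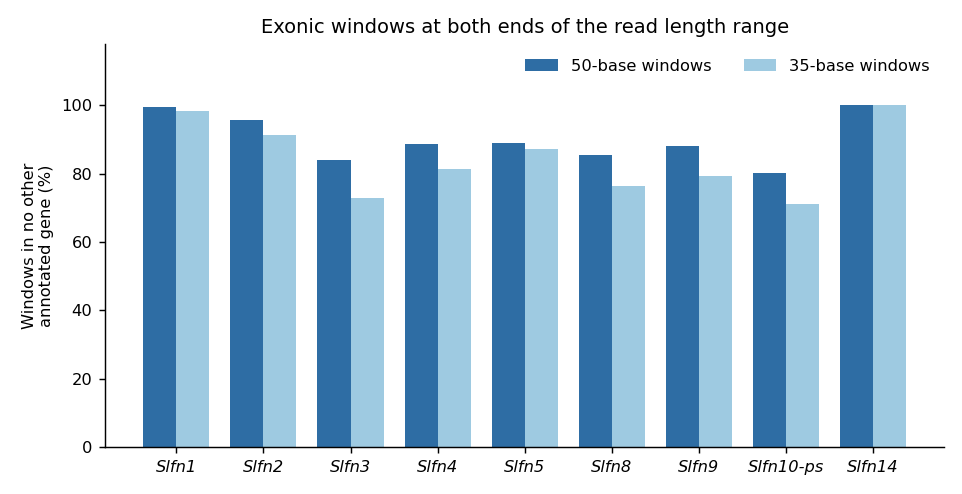
Percentage of exonic windows (y axis) of each Schlafen gene (x axis) that occurred in no other annotated gene of GRCm38, for windows of 50 bases (dark bars) and 35 bases (light bars). The bars of *Slfn1* and *Slfn14* are at 98.5% or more, and the lowest bars are those of *Slfn10-ps* at 80.3% and 71.1%.

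The deposited values are read counts divided by 1 size factor per library, called normalized counts here. The recovered totals ran from 68803249 to 88745366 reads per library. The members had between 265 reads (*Slfn8*) and 6504 reads (*Slfn2*) in a library, which puts the counting error of any single value at 6.14% or less. Sex was not given in the labels. Y-linked genes were near 0 in Control replicates 1 and 2 and LS1 replicate 2, where *Xist* was high, and abundant in Control replicate 3 and LS1 replicates 1 and 3. Cell types were checked by fixed lists of markers. The cartilage collagen gene *Col2a1* ran from 1344212 to 2086285 normalized counts over the libraries, the neutrophil gene *S100a8* from 55301 to 103823, and the B cell gene *Cd79a* from 8544 to 11235. Cartilage and marrow were thus both present in every library.

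Of the short members, *Slfn1*, which slows thymocyte growth when overexpressed, had more reads in each LS1 library. Normalized counts were 1226, 1131 and 1224 in Control replicates 1, 2 and 3, and 2209, 2766 and 1718 in LS1 replicates 1, 2 and 3. The lines did not overlap, and the Control libraries were close together. The mean was 1194 ± 54.5 for Control and 2231 ± 524 for LS1 (SD, n = 3 each). The difference on the log2(normalized count + 1) scale was 0.88 (standard error 0.18), or 1.83-fold.

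*Slfn2*, which keeps resting T cells and monocytes quiescent, was the most abundant member. It had 2843, 2692 and 4014 normalized counts in Control and 3539.5, 5660.1 and 3702 in LS1. The lines overlapped, since Control replicate 3 exceeded LS1 replicates 1 and 3. The log2 difference was 0.42 (standard error 0.21), a 1.34-fold higher mean in LS1. Without LS1 replicate 2 it was 0.21, and without Control replicate 3 it was 0.60.

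The intermediate members went different ways. *Slfn4*, a gene of myeloid cells that responds to interferon and bacterial products, had 2317, 2283 and 1531 normalized counts in Control. It had 4334, 4900.4 and 2632 in LS1. The lowest LS1 library, replicate 3, was above the highest Control library. Means were 2043 ± 444 and 3955 ± 1180.4 (SD, n = 3 each), a log2 difference of 0.93 (standard error 0.24) or 1.90-fold.

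*Slfn3*, studied in T cells and in intestinal epithelium, was the member with no higher mean in LS1. Its normalized counts were 874, 739 and 908 in Control and 761, 806 and 677 in LS1. The lines overlapped and the spread was small, with means of 840.4 ± 89.1 and 748 ± 65.3 (SD, n = 3 each). The log2 difference was -0.17 (standard error 0.18). It was -0.26 without Control replicate 2 and -0.10 without LS1 replicate 3, so the direction held while the size moved by more than 1.5 times.

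Among the long members, *Slfn5*, a nuclear protein of the interferon response, had 1191, 1229 and 1393 normalized counts in Control and 2759.6, 3110.3 and 1264 in LS1. LS1 replicates 1 and 2 were above all Control libraries, and LS1 replicate 3 was within the Control range. Means were 1271 ± 107 and 2378 ± 981 (SD, n = 3 each). The log2 difference of 0.80 (standard error 0.30) became 1.21 without LS1 replicate 3.

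*Slfn8*, a helicase-domain member, varied most among the LS1 mice. It had 267, 296 and 342 normalized counts in Control and 658, 1819 and 333 in LS1. LS1 replicate 2 exceeded the 3 Control libraries added together, LS1 replicate 1 was above the Control range, and LS1 replicate 3 was within it. The means were 302 ± 37.5 and 937 ± 781 (SD, n = 3 each), and the log2 difference was 1.29 (standard error 0.57). Leaving out LS1 replicate 2 lowered it to 0.64, and leaving out LS1 replicate 3 raised it to 1.86.

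*Slfn9*, the close relative of *Slfn8*, had 837, 1009.9 and 931 normalized counts in Control and 1739, 1607 and 1001 in LS1. Here LS1 replicate 1 was the highest library, and LS1 replicate 3 was within the Control range. Means were 926 ± 86.4 and 1449 ± 394 (SD, n = 3 each). The log2 difference was 0.61 (standard error 0.22), or 1.53-fold.

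**Figure D2:**
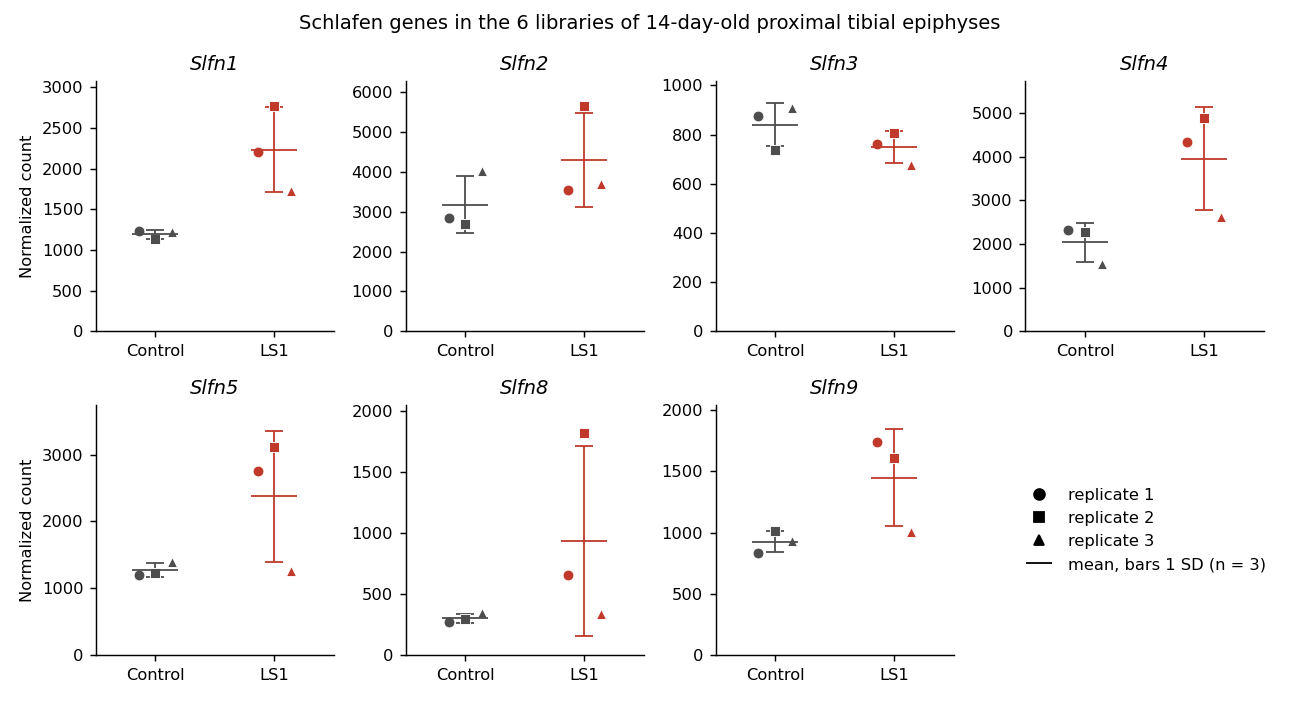
Normalized counts (y axis, from 0) of the 7 Schlafen genes in Control (grey) and LS1 (red), with 1 panel per gene, 1 symbol per library and bars for the mean and 1 SD of 3 mice. *Slfn1* and *Slfn4* do not overlap between the lines, and LS1 replicate 3 (triangle) is the lowest LS1 library in each panel except that of *Slfn2*.

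Together, 6 of the 7 members had a higher mean in LS1 and 1 a lower mean, and the median log2 difference was 0.80. Over all 19308 genes tested the median was 0.0054. The lowest LS1 library exceeded the highest Control library in 2 of the 7 members and in 10.3% of the genes tested. Since these values were used to choose the family, nothing is read from that count.

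The LS1 libraries differed among themselves. Relative to the Control mean on the log2 scale, the median of the 7 members was 0.91, 1.21 and 0.15 in LS1 replicates 1, 2 and 3. It lay between -0.091 and 0.12 in the Control libraries. LS1 replicate 2 was the highest of the 6 libraries in 5 members. LS1 replicate 3 was above the Control mean in 5 members and above the highest Control library in 2, *Slfn1* and *Slfn4*. The range over the members in LS1 replicate 2 was wide, from -0.055 in *Slfn3* to 2.60 in *Slfn8*.

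**Figure D3:**
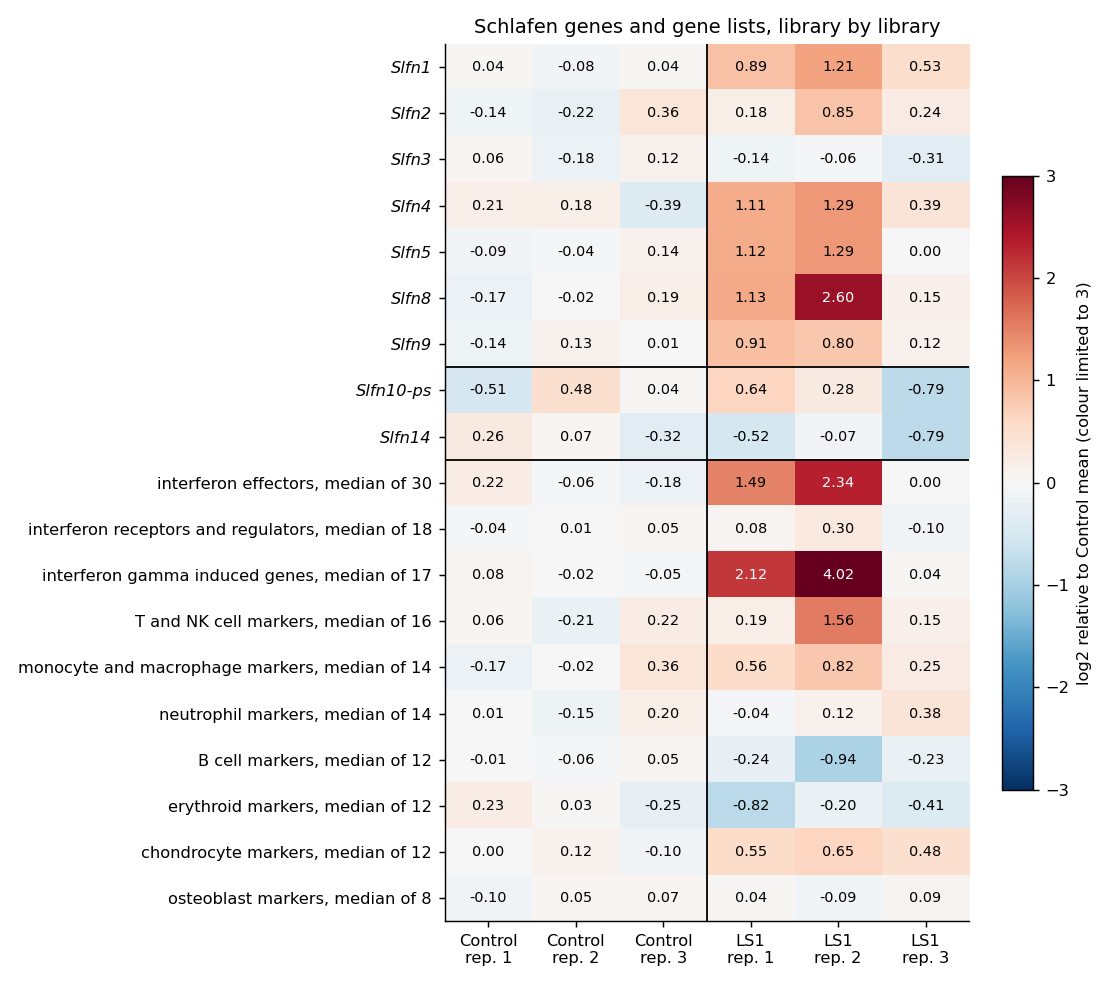
Each cell gives the log2 difference of 1 library from the Control mean, with the 6 libraries in columns and the Schlafen genes and the medians of gene lists in rows (red higher, blue lower, colour limited to 3). The Schlafen members reach 2.60 in LS1 replicate 2 and at most 0.53 in LS1 replicate 3, and the median of the interferon gamma induced genes is 4.02 and 0.041 in these same libraries.

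Levels of different members were compared per length, as the normalized count per kb of exon. *Slfn2* led with 1913 ± 435 per kb in Control and 2584 ± 709 in LS1 (SD, n = 3 each). *Slfn1* followed with 640.4 ± 29.2 in Control and 1197 ± 281 in LS1, and *Slfn4* with 515 ± 112 and 998 ± 298 (SD, n = 3 each). *Slfn2* was above *Slfn1*, *Slfn1* above *Slfn4*, and *Slfn4* above *Slfn5* in 6 of 6 libraries. The LS1 ranges of *Slfn1* and *Slfn4* overlapped nevertheless.

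The rest of the order was less separate. The level of *Slfn5* was 201 ± 16.9 per kb in Control and 376 ± 155 in LS1, and that of *Slfn3* 246 ± 26.1 and 219 ± 19.1 (SD, n = 3 each). *Slfn5* was above *Slfn3* in 3 of 6 libraries, and their ranges overlapped in both lines. *Slfn9* was at 155 ± 14.5 in Control and 243 ± 66.0 in LS1, and *Slfn8* at 73.8 ± 9.17 and 229 ± 191 (SD, n = 3 each). In Control *Slfn3* was the fourth member and *Slfn8* the last. In LS1 *Slfn3* was the last, with a range that overlapped those of *Slfn5*, *Slfn9* and *Slfn8*.

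**Figure D4:**
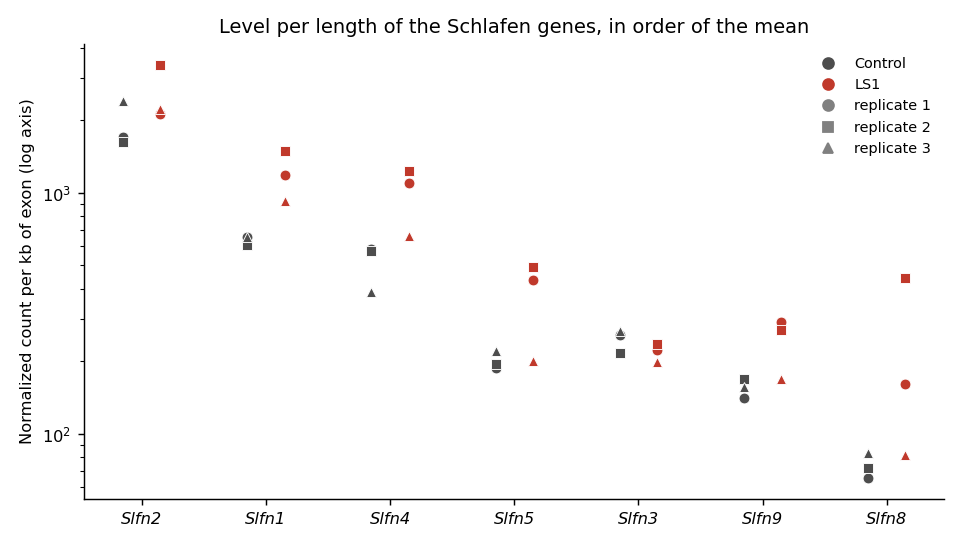
Normalized count per kb of exon (log axis) of each Schlafen member in the 3 Control (grey) and 3 LS1 (red) libraries, with members ordered by their mean over the 6 libraries. *Slfn2* runs from 1618 to 3401 per kb, and *Slfn8*, from 65.4 to 445 per kb, spans the widest range as a fold on this axis.

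Summed over the members, the level per kb was 3745 ± 385 for Control and 5846 ± 1579 for LS1 (SD, n = 3 each). The libraries stood at 3601, 3453 and 4181 in Control and at 5517, 7563 and 4458 in LS1. The lines did not overlap, but the family was chosen by these values, so nothing is read from that. The members took between 0.0123% and 0.0268% of the reads of a library. *Slfn2* alone made up 46.8% to 57.7% of the summed level per kb in Control and 38.6% to 49.9% in LS1. The share of *Slfn8* was 1.82% to 2.10% in Control, and 2.92%, 5.88% and 1.83% in LS1 replicates 1, 2 and 3.

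The near-identical pairs were also set against each other within each library, where a scaling factor cancels. The ratio of *Slfn4* to *Slfn3* normalized counts was 2.65, 3.09 and 1.69 in Control and 5.70, 6.08 and 3.89 in LS1. It was higher in each LS1 library than in each Control library, a description of values that were used to choose the family. The ratio of *Slfn8* to *Slfn9* was 0.319, 0.293 and 0.367 in Control and 0.378, 1.13 and 0.333 in LS1. Only LS1 replicate 2 had more *Slfn8* than *Slfn9* among the 6 libraries, and LS1 replicate 3 lay within the Control range. The part of reads that match both genes of a pair in these ratios was not tested.

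Across the 6 libraries, on the log2(normalized count + 1) scale, the members correlated with one another to unequal degrees. These are descriptions over 6 libraries. Both values of a pair come from the same mouse and library, and the difference between the lines enters each r. Pearson's r was 0.960 between *Slfn5* and *Slfn9*, 0.931 between *Slfn5* and *Slfn8* and 0.910 between *Slfn1* and *Slfn4*. *Slfn2* correlated best with *Slfn8* (r = 0.845) and less with *Slfn4* (r = 0.486). *Slfn3* had r between -0.360 (*Slfn4*) and 0.109 (*Slfn2*) with the others. The closest pair in sequence, *Slfn8* and *Slfn9*, had r = 0.846.

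Genes outside the family with the most similar pattern were looked for among 14761 genes with a mean of at least 100 reads, again over 6 libraries. A search of this size can give a high r for any gene, and the values serve only to name the genes. For *Slfn1* they were *Nceh1* (r = 0.999), *Fgl2* (r = 0.993) and *Ccl8* (r = 0.992). For *Slfn2* they were *Dnaaf3* (r = 0.994), *Rinl* (r = 0.992) and *Shisa5* (r = 0.988), and for *Slfn3* they were *Hoxc5* (r = 0.998), *Vrk2* (r = 0.992) and *Mansc1* (r = 0.980).

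*Slfn4* was followed most closely by *Folr2* (r = 0.998), a folate receptor of tissue macrophages, *Tlr3* (r = 0.997), a receptor for double-stranded RNA, and *Chp1* (r = 0.993). The genes nearest to *Slfn5* were the pseudogene *9130208D14Rik* (r = 0.992), *Crybg3* (r = 0.990) and *Apobec1* (r = 0.990). *Slfn8* had the antigen peptide transporter *Tap1* (r = 0.997), *Lgals3bp* (r = 0.994) and *Mlkl* (r = 0.993). *Slfn9* had *Birc3* (r = 0.998), *Slc41a1* (r = 0.993) and the leukocyte antigen gene *Ptprc* (r = 0.993). *Ccl8*, an inflammatory chemokine, had the largest log2 difference between the lines among these genes, 4.84, and *Rinl* was at 0.17.

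The Schlafen genes outside the chosen 7 were tested between the lines with limma. *Slfn14*, an RNA-cleaving member of red cell precursors and platelets, had 6404, 5617 and 4278 normalized counts in Control and 3731, 5102 and 3096 in LS1. The lines overlapped, with a log2 difference of -0.46 (standard error 0.20, limma adjusted p = 0.366). *Slfn10-ps* had 220, 438 and 323 normalized counts in Control and 489, 381 and 181 in LS1, at 0.039 on the log2 scale (standard error 0.37, limma adjusted p = 0.976). *Slfnl1*, on chromosome 4, had between 3.81 and 39.9 normalized counts and did not reach the filter on reads. Of the 2 tested, 0 were called by limma (1 at an unadjusted p under 0.05), 0 by edgeR and 0 by DESeq2. Over all genes tested, limma called 14 (0.0725%) at an adjusted p under 0.05 and 2499 (12.9%) at an unadjusted p under 0.05. On the recovered reads edgeR called 7 (0.0363%) and DESeq2 456 (2.51%).

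Erythroid and megakaryocyte markers also had lower means in LS1. The list of 12 erythroid markers had a lower mean in LS1 in 12 of 12 genes, with a median log2 difference of -0.51 and 0 called by limma (5 at an unadjusted p under 0.05), edgeR or DESeq2. The megakaryocyte list had lower means in 10 of 10, with a median of -0.62 and 0 called by limma (6 unadjusted), edgeR or DESeq2. Without LS1 replicate 1 these medians were -0.24 and -0.33. The unadjusted counts stand against 12.9% of all genes tested. The summed erythroid markers ran from 442913 to 562881 in Control and from 307287 to 491015 in LS1. Their part in the values of *Slfn14* was not tested.

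Interferon pathway genes were compared as the known context of the family. Their lists, like the marker lists, were chosen with earlier results of these data known. Their p-values and calls are therefore descriptions and not independent tests. In the list of 30 interferon effectors, 30 of 30 had a higher mean in LS1, with a median log2 difference of 1.30. It was 0.72 without LS1 replicate 2 and 1.89 without LS1 replicate 3. By limma 0 were called (10 at an unadjusted p under 0.05, all higher), by edgeR 0 and by DESeq2 8, all higher. Over all genes tested, these shares were 12.9% at an unadjusted p by limma and 2.51% by DESeq2. In 7 of the 30 the lowest LS1 library exceeded the highest Control library, against 10.3% of all genes tested. Without LS1 replicate 3, limma called 22 of the 30 and 324 genes in all. The most abundant effectors were *Rsad2* (viperin), *Samd9l* and *Parp14*. The antiviral *Rsad2* had 13575, 7521 and 7087 normalized counts in Control and 15205, 16805 and 9169 in LS1 (log2 difference 0.57, standard error 0.30, adjusted p = 0.478 from limma). *Samd9l* was at 0.65 (standard error 0.28, limma adjusted p = 0.375) and *Parp14* at 1.14 (standard error 0.68, limma adjusted p = 0.547). In *Parp14* the value of LS1 replicate 3, 2349.60, was within the Control range of 2239 to 3139.6, as it was in *Slfn5*, *Slfn8* and *Slfn9*.

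Genes induced by interferon gamma had a still higher median than the effectors. Here 17 of 17 had a higher mean in LS1, with a median log2 difference of 1.86. It was 0.82 without LS1 replicate 2 and 3.07 without LS1 replicate 3. By limma 0 were called (2 at an unadjusted p under 0.05, against 12.9% of all genes tested). By edgeR 0 were called and by DESeq2 9, all higher, against 2.51% of all genes. Without LS1 replicate 3 limma called 9. *Cxcl9*, a chemokine that attracts T cells, had 85.8, 108 and 43.1 normalized counts in Control and 5531, 28599.7 and 117 in LS1. Its log2 difference was 5.15 (standard error 2.33, limma adjusted p = 0.459). The GTPase genes *Igtp* and *Irgm2* were at 1.86 and 0.78 (adjusted p = 0.614 and 0.691 from limma). LS1 replicate 2 was the highest library in 17 of 17 genes of the list, and in 28 of the 30 effectors.

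The receptors and regulators of the pathway had a median closer to 0. Of 18 genes, 13 had a higher and 5 a lower mean in LS1, with a median log2 difference of 0.18, or 0.28 without LS1 replicate 1. By limma 0 were called (2 at an unadjusted p under 0.05, against 12.9% of all genes tested), by edgeR 0 and by DESeq2 0. The kinase gene *Jak1* was at 0.048, *Jak2* at 0.33 and the receptor gene *Ifngr1* at 0.13 (adjusted p = 0.911, 0.347 and 0.763 from limma). *Jak2* had 10193, 9574 and 8141 normalized counts in Control and 12008, 12441 and 10458 in LS1, without overlap.

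Of the 10 interferon ligands listed, *Ifng* alone passed the filter on reads. It had 11.1, 0 and 8.85 normalized counts in Control and 113, 222 and 6.53 in LS1, so LS1 replicates 1 and 2 stood apart. It passed the filter only through these libraries, so its values are given as a description without a test. The other ligands, among them *Ifnb1*, were listed at no more than 3.48 normalized counts in any library. At these depths a transcript of such low level could be missed.

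The members were read against the genes around them to see how far along the chromosome a difference extended. Within 500 kb of the cluster, 27 of 49 other genes were tested. Their median log2 difference was -0.013, and 13 had a higher and 14 a lower mean in LS1. By limma 0 were called (5 at an unadjusted p under 0.05, 4 of them higher), by edgeR 0 and by DESeq2 3. Over all genes tested, these shares were 12.9% at an unadjusted p by limma and 2.51% by DESeq2. LS1 lay wholly above Control in 4 of them and wholly below in 2, against 10.3% and 8.94% of all genes tested. The tested genes next to the outermost members, named for their position, were *Unc45b* at -0.58 (standard error 0.29) and *AI662270* at 0.0093 (standard error 0.15).

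The smallest p-values around the cluster were those of *Wfdc17*, *Ccl5* and *Ccl3*, all of them genes of immune cells. *Wfdc17* had 227, 177 and 473 normalized counts in Control and 1065, 1043 and 615 in LS1, or 1.72 on the log2 scale (standard error 0.36, limma adjusted p = 0.156). The chemokine genes *Ccl5* and *Ccl3* were at 1.89 (standard error 0.54) and 1.16 (standard error 0.34), both with an adjusted p = 0.247 from limma. Without LS1 replicate 3 limma called 2 genes around the cluster, and without Control replicate 3 it called 1.

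**Figure D5:**
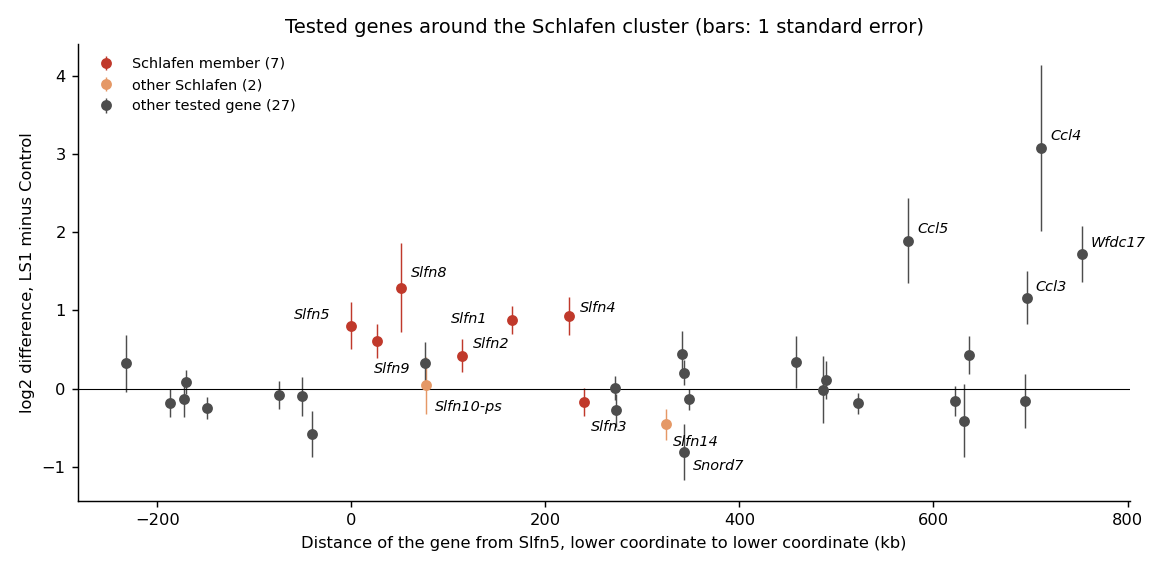
Log2 difference between LS1 and Control with 1 standard error (y axis) for the 36 tested genes in and around the Schlafen cluster, by distance from *Slfn5* (x axis, kb). Between *Slfn5* and *Slfn4* the members lie above 0.4, other genes up to 500 kb scatter around 0, and the labelled chemokine genes and *Wfdc17* lie farther out. *Ccl4* and *Snord7* were labelled after their values were seen.

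Markers of blood cells, which express Schlafen genes, were read in the same libraries. The marker lists too were chosen with earlier results of these data known, so their calls are descriptions. Of 16 markers of T and NK cells 14 had a higher mean in LS1 (median log2 difference 0.47, or 0.22 without LS1 replicate 2 and 0.74 without LS1 replicate 1), and their summed level was 4579 to 5821 in Control and 5287, 11295 and 5994 in LS1 replicates 1, 2 and 3. The abundant T cell genes *Lck* and *Lat* were at 0.030 and -0.19 (adjusted p = 0.971 and 0.783 from limma). LS1 lay wholly above Control in 3 of the 16 and wholly below in 0, against 10.3% and 8.94% of all genes tested. Those above were *Ncr1* at 1.47, *Gzma* at 1.94 and *Nkg7* at 0.91 (adjusted p = 0.159, 0.257 and 0.295 from limma). They were named after their values were seen. By limma 0 of the 16 were called, with 4 at an unadjusted p under 0.05, 3 higher and 1 lower. The lower one was *Cd2* at -0.80 (adjusted p = 0.345 from limma). By edgeR 0 were called and by DESeq2 2, both higher. Over all genes tested, 12.9% had an unadjusted p under 0.05 by limma and DESeq2 called 2.51%. Of 14 markers of monocytes and macrophages 14 had a higher mean (median 0.49), with sums of 44206 to 65293 in Control and 63873 to 90378 in LS1. By limma 0 of them were called (5 unadjusted), by edgeR 0 and by DESeq2 2. *Mpeg1*, a pore-forming protein of macrophages, was at 1.10 (adjusted p = 0.285 from limma), while *Csf1r*, the macrophage growth factor receptor, was at 0.087 (adjusted p = 0.876 from limma).

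The other marker lists showed both directions. Their counts stand against 12.9% of all genes tested at an unadjusted p under 0.05 by limma and 2.51% called by DESeq2. Of 12 B cell markers 11 had a lower mean in LS1 (median -0.47, or -0.21 without LS1 replicate 2), with sums of 64514 to 68101 in Control and 37826 to 60053 in LS1. Of them 0 were called by limma (7 unadjusted, all lower), 0 by edgeR and 1, lower, by DESeq2. *Cd79a*, a part of the B cell receptor, was at 0.0067 (adjusted p = 0.993 from limma). Of 14 neutrophil markers 12 had a higher mean (median 0.19, or 0.088 without LS1 replicate 3 and 0.12 without Control replicate 2), with 0 called by limma (3 unadjusted), edgeR or DESeq2. Of 12 chondrocyte markers 12 had a higher mean (median 0.54), with 0 called by limma (9 unadjusted), 0 by edgeR and 6 by DESeq2. Of 8 osteoblast markers 5 had a higher mean (median 0.085, and 0.0090 to 0.16 with 1 library left out), with 0 called by limma (1 unadjusted), 0 by edgeR and 1, lower, by DESeq2. No marker of any list was at 0 in all libraries. The part of any cell type in the values of the Schlafen members was not tested.

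The lines were also compared within the libraries with and without Y-linked reads, which leaves 1 or 2 mice per line and no test. Where Y-linked reads were present, *Slfn1* differed by 0.67, *Slfn4* by 1.14, *Slfn5* by 0.42, *Slfn8* by 0.45 and *Slfn9* by 0.50 on the log2 scale, and *Slfn2* turned to -0.15. Where they were near 0, these genes differed by 1.23, 1.09, 1.36, 2.69 and 0.80, and *Slfn2* by 1.03. *Slfn3* was at -0.34 and at 0.0036. The former set holds LS1 replicates 1 and 3 and the latter LS1 replicate 2, so this split cannot be told apart from the difference among the LS1 mice.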

How the data were processed

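RNA-seq of polyadenylated RNA was analysed in 3 Control and 3 LS1 libraries. Per the labels, the authors used HISAT2 2.0.2 for mapping (GRCm38), featureCounts 1.4.6 for counting and DESeq2. The deposited unit is a signal, the count divided by 1 size factor per library, from which whole reads were recovered in 100% of values (tolerance 1e-06). In Control replicate 1 the value of 1 read, 1.01, was too near 1 to tell reads from rounded values. Strand and multi-mapped reads were not described.

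Genes with a mean of at least 20 reads were fitted on log2(value + 1) by limma 3.58.1 (R 4.3.3) using trend and robust moderation, and Benjamini-Hochberg adjustment at 0.05 over 19308 genes. On the recovered reads, edgeR 4.0.16 and DESeq2 1.42.0 gave alternative tests. The scripts were tested on simulated data. Named genes were the members, the other Schlafen genes, the most abundant genes of each list, the 3 smallest p-values around the cluster and the 3 best correlates of each member. Of these, 1 gene is not reported here. Members and lists were chosen with earlier results of these data known. Names and coordinates came from GENCODE M21. No genome sequence was used here. Replicates share the letters A, B and C in their titles, whose meaning the labels do not give. The main fit did not pair the samples by letter.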

Additional observations from a re-analysis of the deposited data

How the results depend on the processing

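The 7 members kept the sign of their log2 difference under each of 17 alternative settings (other tests, normalization, pseudocounts, filters and moderation, a replicate block, a Y-linked covariate and leaving out 1 library at a time). Of these, the filters, the moderation and the block leave the difference as it is by construction. The split by Y-linked reads was not among the settings. There the sign changed, with *Slfn2* at -0.15 where such reads were present and *Slfn3* at 0.0036 where they were near 0. *Slfn1* ranged from 0.71 to 1.05, *Slfn2* from 0.21 to 0.60, *Slfn3* from -0.26 to -0.10, *Slfn4* from 0.73 to 1.20, *Slfn5* from 0.56 to 1.21, *Slfn8* from 0.64 to 1.86 and *Slfn9* from 0.46 to 0.86. The order of the levels per kb was the same by the longest transcript. With 3 mice per line and unequal LS1 libraries, counts of calls were less stable.

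Against 14 genes called by limma, edgeR called 7, DESeq2 456, limma without a filter 45, with a mean of at least 100 reads 9 and without robust moderation 7. The same test called 5 to 324 genes when 1 library was left out. Its count was 5 without Control replicate 2, 9 without Control replicate 1, 46 without LS1 replicate 1 and 324 without LS1 replicate 3. On 5 libraries without Control replicate 1, edgeR called 5, an alternative chosen after seeing the data, as was the Y-linked covariate (11 genes). DESeq2 called 8 effectors, 9 interferon gamma induced genes and 3 genes around the cluster, where limma called 0. With 1 library left out, limma called 0 to 22 effectors, 0 to 1 regulators, 0 to 9 interferon gamma induced genes and 0 to 2 genes around the cluster. The highest of each was without LS1 replicate 3. The cause was not tested. The median share of 50-base windows in no other gene, 88.7%, was 81.3% at 35 bases.

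The labels do not say what the title letters mean. Between the samples of a letter the correlations of deviations were 0.0536 (A), 0.0211 (B) and 0.224 (C). With 1 pair per letter these cannot settle whether the letters pair the samples. With the letter as a replicate block limma called 12 genes, 0 of them in the interferon lists or around the cluster, and the median difference of the members was 0.80. The search of the whole genome for short windows was not run, as no genome sequence was used here.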
